A study of Mus musculus with 3 samples.

Results

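Type I interferon-stimulated genes are the genes that a cell switches on when a type I interferon reaches its receptor, and 10 of them (*Isg15*, *Ifit1*, *Ifit2*, *Ifit3*, *Rsad2*, *Usp18*, *Oasl2*, *Ifi44*, *Ifitm3* and *Bst2*) were followed here through Müller glia (MG) of the mouse retina. The genes were chosen by their levels in these same libraries, with the ratio of the CCA to the Control library in view, so every ratio between those libraries given for them is a description and not a test of their direction. All 10 were matched by symbol among the 32287 features counted in each library. Cells came from *Glast-CreERT2; R26-CAG-LSL-Tdt* mice, in which tamoxifen, given from postnatal day 20 at 75 mg/kg per the labels, turns on tdTomato in cells that express the *Glast* driver. All animals then received intravitreal adeno-associated virus on day 28, under a *GFAP* promoter. The Control animals received AAV7m8-GFAP-GFP-LacZsh alone, which carries GFP and a short hairpin RNA against *LacZ*. The CCA (cell cycle activator) animals received AAV7m8-GFAP-cyclinD1-p27sh, for cyclin D1 and against p27, mixed 9 to 1 with the Control vector. The CCANT animals received the CCA mixture, then the excitotoxin NMDA on day 35 and the histone deacetylase inhibitor Trichostatin A (TSA) on day 37. On day 51, 2 to 4 retinas of a group were pooled, cells positive for tdTomato were sorted, and 1 droplet library was made per group, so that each comparison has 1 library on each side and no replicate.

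A type I interferon binds a receptor of the subunits *Ifnar1* and *Ifnar2*, the kinases *Jak1* and *Tyk2* then act on a factor complex that contains *Stat2* and *Irf9*, and this complex binds the interferon-stimulated response element in the promoters of its target genes. The products of those targets block the entry, translation or release of viruses, and some of them switch the response off again. Interferon-gamma acts through another receptor and favours another set of genes, among them guanylate-binding proteins and immunity-related GTPases. In the retina, MG are the glia that span its whole thickness, and they can answer both kinds of interferon.

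The libraries held 219051219 to 224515457 unique molecular identifiers (UMIs, each a counted RNA molecule), and 3758 Control, 3890 CCA and 3278 CCANT cells of them are in the series-wide table of the authors. Of these cells, 3711 Control, 3664 CCA and 2829 CCANT cells fell into MG-like clusters, called MG here, with a median of 24226, 20739 and 20532 UMIs per cell. Up to 8 cell barcodes of the table are shared by a pair of libraries. MG of the Control library carried UMIs of Y-linked genes (3468 cells, and 0 with *Xist*) and MG of the CCA library carried *Xist* (3639 cells, and 0 with Y-linked UMIs), while the CCANT library held 1000 MG of the former and 1514 of the latter kind. Sex and the CCA treatment therefore cannot be told apart in the ratio of these libraries. The libraries also fill different clusters. Control MG lay mostly in clusters 1, 3 and 4, CCA MG were spread over clusters 1 to 5, and the clusters with the most CCANT MG were 2 and 5 (29.6% and 17.3% of those with at least 8000 UMIs). Cycling MG numbered 3, 405 and 106. Levels below are UMIs of a gene per 1000000 UMIs of the same cells (CPM), summed over MG, and carry exact 95% Poisson intervals. Shares of cells carry exact binomial (Clopper-Pearson) intervals. Both cover counting error only.

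*Isg15* lies at chr4:156199424-156200818 on the minus strand of GRCm38, with its GENCODE gene body as the span. *Ifit2* (chr19:34550694-34576419), *Ifit3* (chr19:34583531-34588731) and *Ifit1* (chr19:34640871-34650009) are neighbours on the plus strand. *Ifit3* has a near-identical neighbour, *Ifit3b*, so reads may be split between them and the counts of both are uncertain. *Rsad2* is at chr12:26442746-26456452 and *Bst2* at chr8:71534255-71537456, both on the minus strand. *Usp18* (chr6:121245906-121270917, plus strand) is overlapped on the opposite strand by the long noncoding RNA gene *Gm44148*. *Oasl2* spans chr5:114896936-114912234 on the plus strand, and *Ifi44* (chr3:151730922-151749960) and *Ifitm3* (chr7:141009586-141010770) are on the minus strand.

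RefSeq promoters, from 250 bases before to 50 after the start of transcription, were at hand for 9 of the 10 genes. *Usp18* is named only. Both strands were searched for the core of the interferon-stimulated response element (GAAA, any 2 bases, GAAA), which was present in 6 of the 9 genes (66.7%) and in 3.99% of the 27025 genes in the table. The letters of a gamma-activated site (TTC, any 3 bases, GAA) were in 3 of the 9 (33.3%) and in 9.55% of all genes there. Some genes have more than 1 promoter in the table, and counted by promoter the shares were 6 and 3 of 10 for the members and 3.44% and 8.30% of all 32851. Matches of either motif can overlap. The promoters printed are those of the 4 members that hold the core and whose level was at least 1.5-fold higher in CCA MG. *Bst2* is beside them because it also holds the core and had a lower level in CCA MG. Each is written 5′ to 3′ on the gene's strand from GRCm38.p6, in lower case, and capitals mark the bases of the response element core on either strand.
*Isg15* (chr4:156200769-156201068, minus strand): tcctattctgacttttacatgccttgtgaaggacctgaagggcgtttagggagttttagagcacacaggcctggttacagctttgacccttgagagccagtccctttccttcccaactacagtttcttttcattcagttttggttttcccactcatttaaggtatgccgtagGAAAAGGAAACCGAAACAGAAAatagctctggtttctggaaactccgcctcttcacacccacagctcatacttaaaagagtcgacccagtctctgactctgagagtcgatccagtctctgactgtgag
*Ifit1* (chr19:34640639-34640938, plus strand): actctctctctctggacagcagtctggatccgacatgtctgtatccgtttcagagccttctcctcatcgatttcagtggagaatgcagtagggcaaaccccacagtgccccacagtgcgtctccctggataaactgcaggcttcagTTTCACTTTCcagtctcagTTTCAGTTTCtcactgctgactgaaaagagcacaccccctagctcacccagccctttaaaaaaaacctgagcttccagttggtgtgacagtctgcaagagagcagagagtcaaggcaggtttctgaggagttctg
*Ifit3* (chr19:34583279-34583578, plus strand): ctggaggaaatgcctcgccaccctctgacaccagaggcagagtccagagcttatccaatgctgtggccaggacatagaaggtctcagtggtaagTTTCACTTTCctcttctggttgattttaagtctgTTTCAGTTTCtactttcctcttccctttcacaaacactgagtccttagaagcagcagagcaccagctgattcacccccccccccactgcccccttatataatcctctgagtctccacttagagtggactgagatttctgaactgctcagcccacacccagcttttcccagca
*Rsad2* (chr12:26456403-26456702, minus strand): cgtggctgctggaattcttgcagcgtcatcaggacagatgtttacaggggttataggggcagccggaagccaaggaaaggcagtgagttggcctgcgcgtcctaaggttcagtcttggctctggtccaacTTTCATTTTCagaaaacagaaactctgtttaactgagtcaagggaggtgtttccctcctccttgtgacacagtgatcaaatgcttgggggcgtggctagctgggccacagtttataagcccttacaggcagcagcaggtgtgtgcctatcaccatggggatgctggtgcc
*Bst2* (chr8:71537423-71537722, minus strand): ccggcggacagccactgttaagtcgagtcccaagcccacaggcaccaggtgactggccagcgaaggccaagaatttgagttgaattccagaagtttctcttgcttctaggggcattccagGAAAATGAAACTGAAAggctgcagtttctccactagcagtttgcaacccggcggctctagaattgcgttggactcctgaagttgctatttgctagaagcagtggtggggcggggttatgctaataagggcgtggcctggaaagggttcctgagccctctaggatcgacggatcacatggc

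*Isg15* holds 3 overlapping matches that begin 78, 72 and 66 bases before the start, and *Bst2* holds 2 that overlap, 130 and 124 bases before it. In *Ifit1* they begin 104 and 85 bases before the start, in *Ifit3* 156 and 122, and *Rsad2* has 1 at 120. *Ifitm3* is the sixth gene with the core, with 2 matches after its start. *Ifit2*, *Oasl2* and *Ifi44* hold no match of the core, although *Ifit2* and *Ifi44* were also at least 1.5-fold higher in CCA MG. A match describes letters only, and no binding was measured.

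In MG of the CCA library 7 of the 10 genes were at least 1.5-fold higher than in Control MG and 0 were at least 1.5-fold lower, where 7.3% and 1.56% of the 13762 genes measured in MG were. The median of the 10 log2 ratios was 0.78, against 0.06 over all measured genes. The genes higher in CCA were *Isg15*, the 3 *Ifit* genes, *Rsad2*, *Usp18* and *Ifi44*. *Oasl2* barely differed, and *Ifitm3* and *Bst2* were lower. Because *Ifitm3* and *Bst2* supply many of the UMIs, the sum of the 10 genes differed less than their median, with 1416 (Control), 1678 (CCA) and 1101 CPM (CCANT). The log2 ratio of the sums, CCA to Control, was 0.25 (0.23 to 0.26).

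*Isg15*, a ubiquitin-like protein that is joined to other proteins, stood at 136.5 (Control), 248 (CCA) and 142.5 CPM (CCANT). Only the CCA library was high, with a log2 ratio to Control of 0.86 (0.83 to 0.89), while CCANT was within 0.10 of Control at the upper bound of its interval. *Usp18*, the protease that removes *Isg15* from its targets and also damps the interferon receptor, was at 19.1, 44.4 and 23.8 CPM. Its CCA ratio was 1.22 (1.14 to 1.30).

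The *Ifit* proteins bind viral RNA and hinder its translation. *Ifit1* was at 66.5 (Control), 153 (CCA) and 64.6 CPM (CCANT), so that Control and CCANT lay together and CCA stood 1.20 above Control on the log2 scale (1.15 to 1.24). *Ifit2* was at 27.9, 44.8 and 24.8 CPM (CCA ratio 0.68, 0.61 to 0.76). *Ifit3* was at 164, 266 and 99.97 CPM, the member among them with a CCANT level well under that of Control, at −0.72 (−0.76 to −0.67).

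Of the enzymes, *Rsad2*, which makes a chain-terminating nucleotide from CTP, was at 32.7 (Control), 81.8 (CCA) and 38.9 CPM (CCANT). Its CCA ratio of 1.32 (1.26 to 1.38) is a 2.50-fold difference. *Oasl2*, a relative of the oligoadenylate synthetases, was at 227, 245 and 170 CPM, with a CCA ratio of 0.11 (0.08 to 0.14). *Ifi44* was the scarcest member in all 3 libraries, at 9.11, 23.0 and 14.3 CPM, and had the highest CCA ratio of the 10, 1.33 (1.22 to 1.45).

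*Ifitm3* and *Bst2* were the members with a lower level in CCA than in Control. *Ifitm3*, which blocks virus entry at endosomes, was at 489 (Control), 405.5 (CCA) and 416 CPM (CCANT), with a CCA ratio of −0.27 (−0.29 to −0.25). *Bst2* encodes tetherin, which holds budding virus at the cell surface. It was at 244 (Control), 168 (CCA) and 106 CPM (CCANT), with ratios to Control of −0.54 (−0.57 to −0.51) and −1.20 (−1.24 to −1.16).

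**Figure D1:**
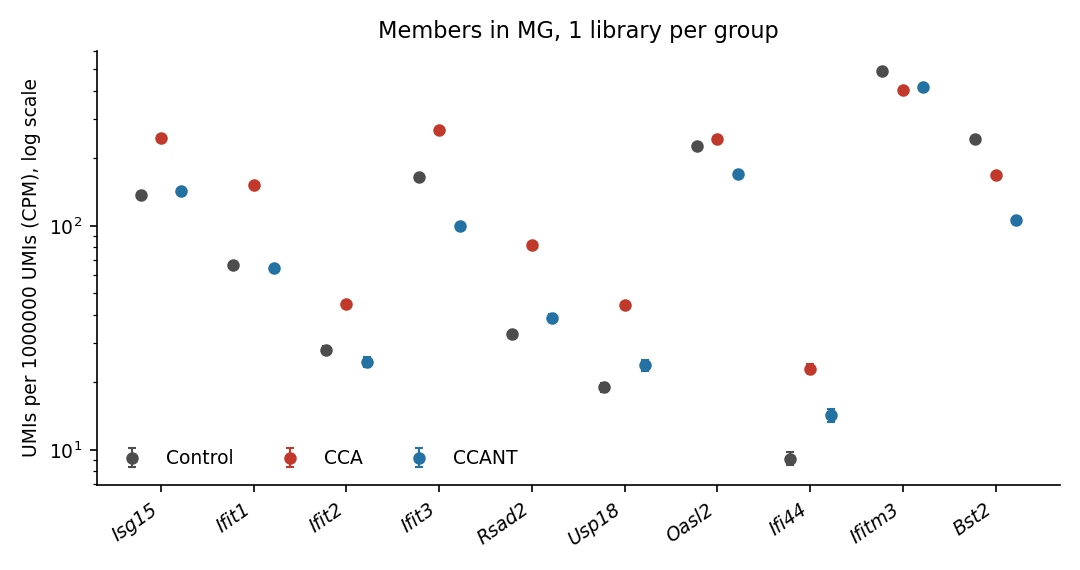
Level of each of the 10 genes in MG of each library, in UMIs per 1000000 UMIs on a log axis, with exact 95% Poisson intervals for counting error (often smaller than the point). The CCA point is the highest of the 3 for 8 genes, and for *Ifitm3* and *Bst2* the Control point is the highest.

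CCANT MG were compared with the same Control library, so the CCANT and CCA ratios share their denominator. In CCANT, 1 member (*Ifi44*, 0.65, 0.51 to 0.79) was at least 1.5-fold higher than in Control MG and 2 (*Ifit3* and *Bst2*) were at least 1.5-fold lower, against 7.22% and 3.33% of all measured genes. The median ratio of the 10 was −0.11. *Usp18* (0.32) and *Rsad2* (0.25) were above Control, *Oasl2* (−0.42) and *Ifitm3* (−0.23) below it, and *Isg15*, *Ifit1* and *Ifit2* between −0.17 and 0.06. Set against CCA directly, CCANT MG had 0 members at least 1.5-fold higher and 8 at least 1.5-fold lower, against 1.37% and 3.31% of all measured genes, with a median of −0.83. *Ifitm3* (0.04) and *Oasl2* (−0.53) were the exceptions.

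To see whether the CCA level came from few cells or from many, each MG was thinned to 8000 UMIs, so that shallower cells (27 in Control, 76 in CCA and 40 in CCANT) dropped out. The UMIs of the 10 genes were then added up per cell. The median cell held 9 in Control, 7 in CCA and 7 in CCANT. At the 95th percentile the order changed, with 29, 44 and 23 UMIs, and the highest cell held 103, 280 and 109. The middle of the CCA distribution was thus lower than that of Control, and its upper end was higher.

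**Figure D2:**
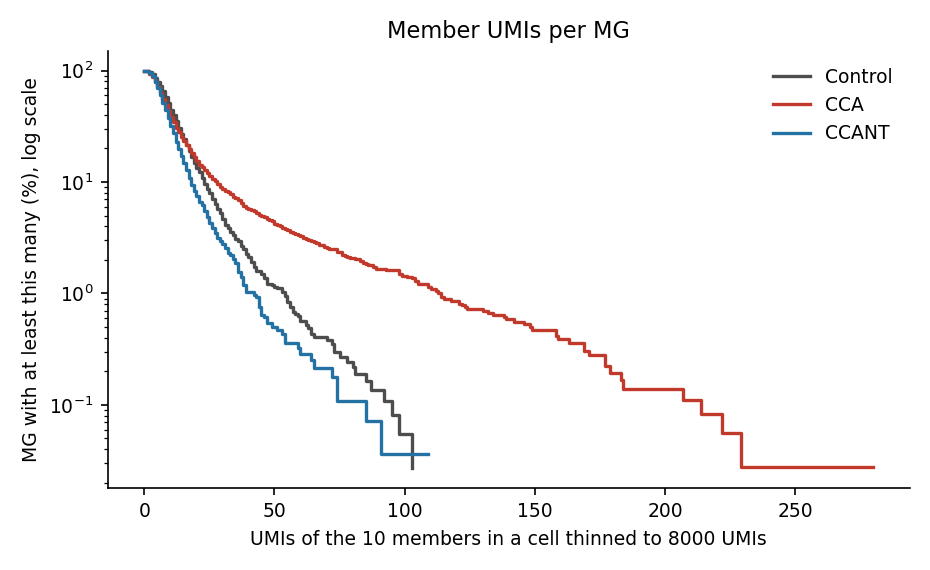
Share of MG, in percent on a log axis, that held at least the number of member UMIs on the horizontal axis, after thinning each cell to 8000 UMIs. The CCA line runs below the Control line in the middle range (medians of 7 and 9 UMIs) and above it at the upper end, out to a cell with 280 UMIs, and the CCANT line lies below Control over nearly the whole range.

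Ranked within each library and cut into 10 equal parts, CCA MG held fewer member UMIs than Control MG in the lowest 8 parts, with log2 ratios from −0.61 in the lowest to −0.05 in the eighth. They held more in the ninth (0.13) and the tenth (0.82), where the mean cell held 33.9 UMIs in Control, 59.8 in CCA and 27.3 in CCANT. The CCANT library was below Control in all 10 parts, between −0.55 and −0.31. These sums lean on *Ifitm3* and *Bst2*, both lower in CCA, with means of 3.85 and 1.97 of the 11.3 member UMIs per Control MG. They do not show that each member was lower in most CCA MG, and the single members, given below, differed. Above 29 UMIs, the 95th percentile of Control, lay 173 MG of Control, or 4.70% (interval 4.04% to 5.43%). The CCA library had 310 such cells, or 8.64% (7.74% to 9.61%), and CCANT had 77, or 2.76% (2.19% to 3.44%). They carried 18.0% of all member UMIs of Control MG, 42.2% of those of CCA MG and 13.1% of those of CCANT MG. The limit is arbitrary, and 93 Control, 75 CCA and 34 CCANT MG lay within 2 UMIs of it.

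The top 5% of CCA MG, 179 cells, held 32.3% of the member UMIs of that library (31.9% to 32.7%). This interval is binomial over UMIs taken as independent. UMIs cluster in cells, and the cells were picked by them, so it understates the spread of the share. In Control the same share of cells held 18.8% and in CCANT 19.6%. Without the top 5% of each library, the summed level of the members no longer differed in the same direction, with a log2 ratio of CCA to Control of −0.03 (−0.06 to −0.01) in place of 0.23 with those cells in.

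The genes were not alike in this, and all values here are at 8000 UMIs per cell. *Ifit3* was at 137 CPM in CCA and 138 in Control once the top 5% were left out, a ratio of −0.01 in place of 0.62 with all cells. *Rsad2* (0.54, from 1.28) and *Isg15* (0.47, from 0.84) kept part of the difference. *Ifi44* (0.96), *Usp18* (0.91) and *Ifit1* (0.84) were still at least 1.5-fold higher in the remaining cells. *Bst2* was more than 1.5-fold lower, at −0.76. With the top 5% out, 3 members were at least 1.5-fold higher and 1 lower, where 7.57% and 2.09% of 13739 genes measured in the same cells were, and the median ratio was 0.46, from 0.765 with all cells. These cells were ranked by the same UMIs, so the drop is in part built into the choice.

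**Figure D3:**
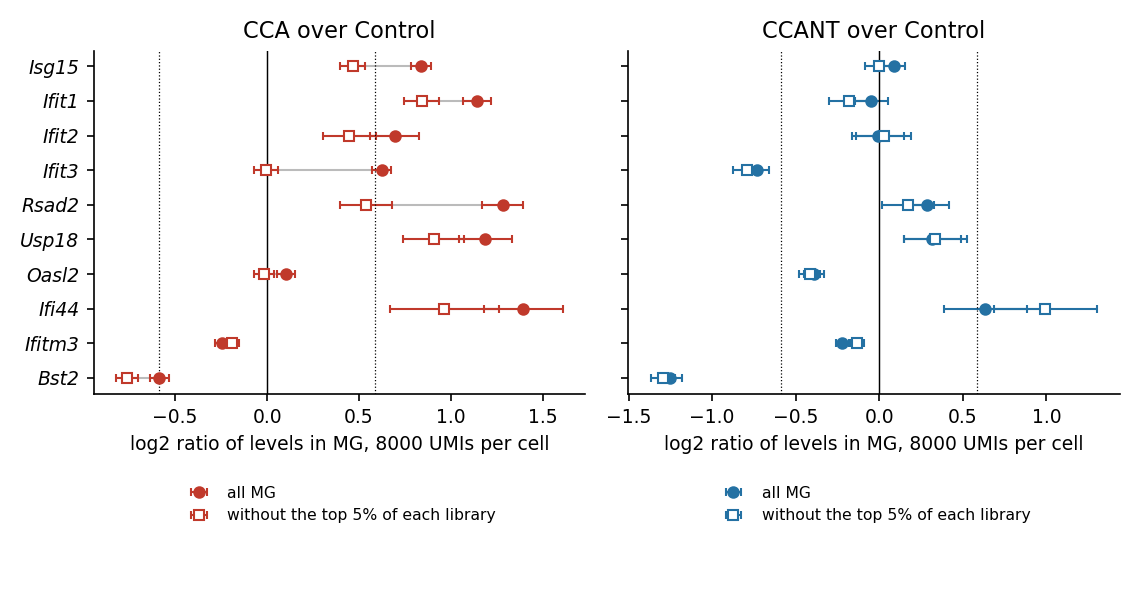
log2 ratio of each member in MG to the Control library, for CCA (left) and CCANT (right), each cell thinned to 8000 UMIs, in all MG (filled circles) and without the top 5% of MG of each library by member UMIs (open squares), with exact 95% intervals for counting error and dotted lines at 1.5-fold. For CCA every open square but that of *Ifitm3* lies left of its circle, with *Ifit3* moving from 0.62 to −0.01.

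The share of MG with at least 1 UMI told the same for *Isg15*. It was detected in 49.2% of MG in Control (47.6% to 50.9%), in 50.0% in CCA (48.3% to 51.6%) and in 45.6% in CCANT (43.8% to 47.5%), shares that hardly differ between Control and CCA. At least 10 *Isg15* UMIs were found in 44 Control, 167 CCA and 48 CCANT MG. The mean over MG with a UMI was 2.22, 3.92 and 2.55. *Ifit3* was detected in fewer CCA than Control MG (54.3% and 61.9%), although its CCA level was higher, and 175 CCA MG held 10 or more *Ifit3* UMIs against 41 Control MG. *Usp18*, by contrast, was detected in more CCA MG, 22.1% against 13.5% in Control and 16.1% in CCANT. *Bst2* was detected in 78.4%, 57.2% and 49.8%.

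For a ranking that does not use the gene itself, MG were ordered by the UMIs of the other 9 members. In the lowest 50% of cells so ranked, *Isg15* stood at 71.3 (Control), 69.4 (CCA) and 70.4 CPM (CCANT), values that lie close together. In the next 45% it was at 156, 240 and 174 CPM, and in the top 5% at 622, 2042 and 636. For *Isg15* the CCA library thus stood apart in the middle and, by more, at the top, and not in the lower cells. *Ifit1* gave 34.2, 33.7 and 26.99 CPM in the lowest 50% and 385, 1222 and 441 in the top 5%. *Rsad2* was at 21.9, 19.8 and 23.3 CPM in the lowest cells and at 153.5, 853 and 181 in the top cells, where 89.9% of CCA MG held at least 1 UMI of it, against 45.7% of Control MG.

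*Usp18*, *Ifit2* and *Ifi44* were higher in CCA than in Control in each band, the lowest included. *Usp18* was at 13.8 CPM in Control and 18.5 in CCA in the lowest, 20.7 and 46.0 in the next and 73.4 and 305 in the top. *Ifi44* was at 1.29 and 3.41 CPM in the lowest band and at 67.3 and 251 in the top, and *Ifit2* at 23.7 and 31.0 in the lowest. *Ifit2* had the lowest correlation with the sum of the other 9 in each library (Pearson 0.069, 0.19 and 0.037 of log1p counts over cells). Its level in the top 5% was 2.27-fold that of the lowest 50% in Control, 6.78-fold in CCA and 1.70-fold in CCANT. *Bst2* was lower in CCA than in Control in the lowest 50% (103 and 185 CPM) and in the next 45% (171.5 and 285), and higher in the top 5% (719 and 522). *Ifitm3* was lower in CCA in all 3 bands.

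**Figure D4:**
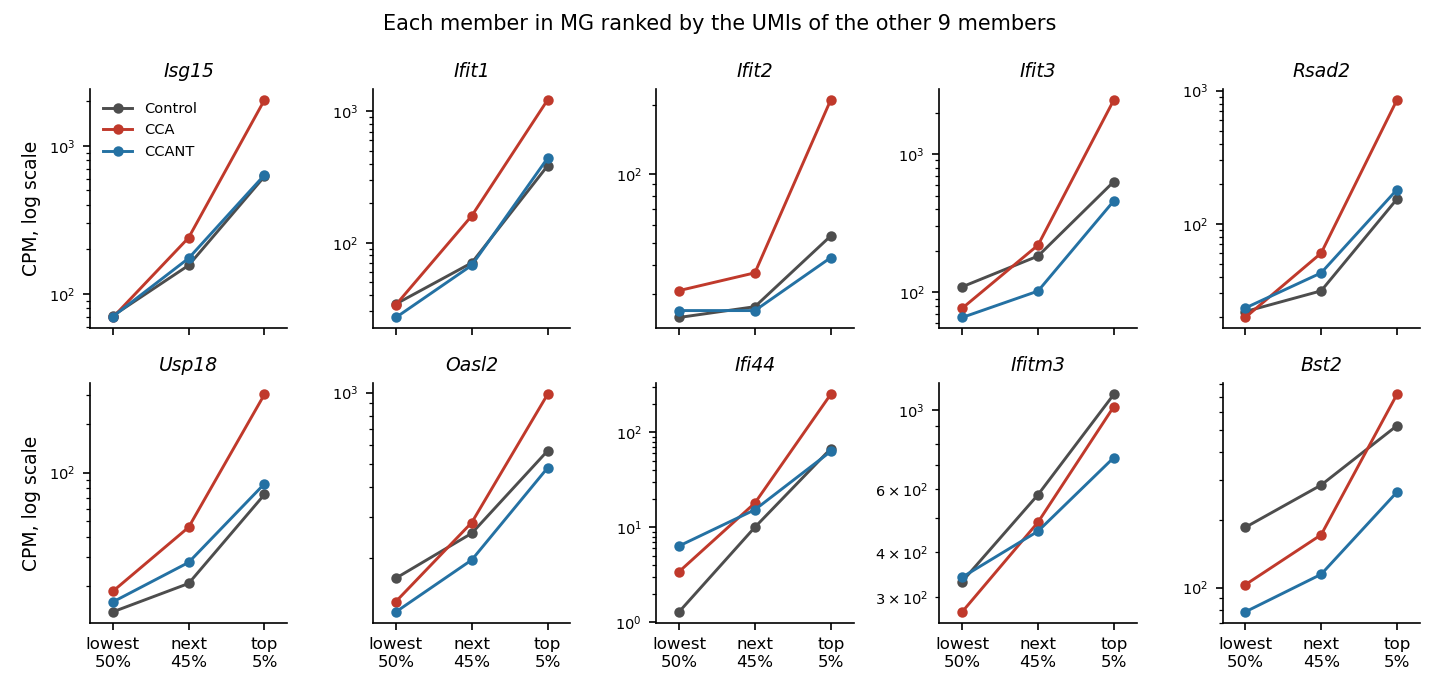
Level of each member in CPM on a log axis (each panel with its own range) in MG ranked within their library by the UMIs of the other 9 members, in the lowest 50%, the next 45% and the top 5%. For *Isg15* the libraries meet near 70 CPM on the left and part to 622, 2042 and 636 CPM on the right, and *Bst2* in CCA runs from below Control to above it.

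The top cells were chosen by their summed member UMIs (a median of 38 in Control, 71 in CCA and 31 in CCANT), so a higher number of members detected in them follows in part from the choice. At 8000 UMIs, 83.2% of the top 5% of CCA MG held at least 8 of the 10 members, against 40.2% in Control and 28.8% in CCANT, and in the other MG the shares were 3.81%, 1.51% and 0.755%. Over the 45 pairs of members, the median Pearson correlation of log1p counts over cells was 0.17 in Control (3684 MG), 0.31 in CCA (3588) and 0.14 in CCANT (2789). The pair *Ifit1* and *Ifit3* had the highest value in CCA, 0.67, and in Control, 0.38. Cells of a library share its free RNA and its making, so these values describe the libraries only. The ranking was made at one depth, and the median of the top cells at full depth was 24654.5 (Control), 20470 (CCA) and 19960 UMIs (CCANT) against 24289, 20947 and 20648.5 in the other MG.

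The genes whose counts ran most closely with the member sum over cells differed between the libraries. In Control MG they were the GTPase *Gbp2* (r = 0.43, 3684 cells), *Cd74*, the invariant chain of antigen presentation (0.42), *Gbp8*, *Iigp1* and the complement inhibitor *Serping1*. In CCA MG they were *Ifit3b* (0.56, 3588 cells), *Trim30a* (0.52), *Rtp4* (0.48), *Rnf213* and *Gm4951* (both 0.46). *Gbp2*, *Cd74* and *Iigp1* are known targets of interferon-gamma, and *Ifit3b* and *Rtp4* of type I interferon.

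Genes that the choice of cells did not use were also higher in the top 5% of MG. The other type I interferon-stimulated genes, 44 in the features, summed to 3633 CPM in those cells and 1402 in the other MG of Control, 8390 and 1388 in CCA and 3076 and 1143 in CCANT. The 14 interferon-gamma GTPases summed to 6164 and 2096 CPM in Control, 4618 and 738 in CCA and 1335 and 444 in CCANT. *Cxcl10*, a chemokine of both interferons, was at 157 and 13.0 CPM in Control, 818 and 17.0 in CCA and 168 and 7.69 in CCANT. *Ccl2*, a chemokine for monocytes, was at 19.7 and 1.61 CPM, 71.2 and 2.46, and 16.2 and 1.46.

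Markers of microglia and macrophages did not stand out in the top cells, with 48.2 CPM against 45.8 in the other MG of CCA. The 8 markers of T and NK cells summed to 63.2 against 13.6 CPM in Control, 19.6 against 3.89 in CCA and 16.2 against 1.42 in CCANT. Most of this was *Ccl5* (61.1, 17.5 and 15.3 CPM in the top cells), and *Cd3e*, *Cd3g* and *Nkg7* were at 0 in the top cells of all 3 libraries. Rod markers were at 581 against 438 CPM in CCA, and their part in the result was not tested. *Gfap*, which reactive MG express, was higher in the top cells of each library, at 57.7 against 17.9 CPM in Control, 110 against 72.8 in CCA and 149 against 90.7 in CCANT. Cycling cells were 8.38% of the top and 10.4% of the other MG of CCA.

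High cells were found in every larger MG cluster of the CCA library. The share of CCA MG above 29 UMIs was 6.91% in cluster 1, 7.93% in cluster 2, 5.29% in cluster 3, 6.86% in cluster 4 and 11.6% in cluster 5. It was highest in cluster 7 (19.4%, 14.5% to 25.1%), whose leading genes are *Cxcl10*, *Fosl1*, *Tnfrsf12a* and *Ccl2*. That cluster also has *Ttr*, a marker of the pigment epithelium, among its 10 leading genes. Like the other MG clusters it has no MG marker among them, and all 9 MG markers were raised in it. It supplied 14.2% of the CCA MG above the limit, and without it the median CCA ratio of the members was 0.66. In Control, the share was 1.18% in cluster 1, 17.6% in cluster 2, led by *Lcn2*, and 15.5% in cluster 7 (9.73% to 22.9%), an interval that overlaps that of CCA. Cluster 2 supplied 58 of the 173 Control and 62 of the 310 CCA MG above the limit, and cluster 7 supplied 11.6% of those of Control. The most CCA MG above the limit, 83, were in cluster 5, which held 15 Control MG with 0 of them above it.

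Within a cluster the CCA ratio depended on the cluster. The median over the members was 0.93 in cluster 1, 0.34 in cluster 3, 0.63 in cluster 4 and 1.23 in cluster 7, and −0.05 in cluster 2, where the summed level was 2701 (Control), 1759 (CCA) and 1284 CPM (CCANT). *Isg15* was at 94.2 and 188 CPM in cluster 1 (Control and CCA) but at 219 and 209 in cluster 2. *Bst2* was lower in CCA in each of these clusters, from −0.28 in cluster 7 to −1.12 in cluster 2. Cluster 5 held 15 Control cells, too few for a ratio. The members and the genes of the interferon lists were left out of the genes used for clustering. Other genes that vary with the members could still be used, so cluster membership need not be independent of them.

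Between cycling and other MG the members went both ways. In CCA, the sum of the 10 was 1493 CPM in the 405 cycling MG and 1702 in the others, with *Isg15* at 223 and 251 and *Ifit3* at 175 and 278. *Bst2* was at 225 CPM in cycling and 161 in other MG of CCA, *Usp18* at 48.5 and 43.9, and *Ifit2* at 48.6 and 44.3. In CCANT, *Ifit2* (39.7 and 24.1 CPM), *Bst2* (137 and 105) and *Ifitm3* (444 and 415) were higher in the 106 cycling MG, while the sum was 1037 and 1104. CCA MG were also divided by *Cdkn1b*, the gene of p27 that the CCA hairpin is directed against. The 1905 MG with 0 *Cdkn1b* UMIs had a member sum of 1740.5 CPM and the 1683 with at least 1 had 1611.5, a log2 difference of 0.11 (0.10 to 0.13). In CCANT, which received the same hairpin, the split gave 0.06 (0.04 to 0.09), and in Control −0.01 (−0.03 to 0.01). The median over the members was 0.10 in CCA, where *Ifit2* went the other way at −0.18 (−0.28 to −0.08), and 0.004 in CCANT. In Control MG, where GFP marks the vector, the sum was higher in cells with more GFP, from 1317 CPM in 2763 cells with 0 GFP UMIs to 1611 in 644 cells with 1 and 1918.5 in 277 cells with at least 2. *Ifi44* (1.17) and *Ifitm3* (0.91) had the highest log2 ratios between the last and the first of these, *Isg15* had 0.24, and *Ifit2* had −0.32. Cells do not stand in for replicates, and these splits carry counting error only.

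CCANT MG allow the sexes to be set side by side within a library. MG with *Xist* UMIs had a member sum of 971 CPM and MG with Y-linked UMIs had 1248 CPM. All 10 members were lower in the former, with a median log2 ratio of −0.41 and values from −0.92 (*Ifi44*) to −0.15 (*Ifit2*). CCA MG, which carried *Xist*, were higher than Control MG for 8 of the 10 members. Between cells with *Xist* in CCANT and in CCA, the median ratio of the members was −1.06, and between cells with Y-linked UMIs in CCANT and Control MG it was 0.08, with *Ifi44* at 1.03 and *Rsad2* at 0.62. Retinas were pooled, so sex and animal cannot be told apart either.

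Beyond the 10 members, 36 of 44 other type I interferon-stimulated genes in the features were measured in MG (at least 50 UMIs over the libraries and a mean of at least 2 CPM). Of these, 16 were at least 1.5-fold higher in CCA than in Control MG and 1 was lower, with a median of 0.50, against 7.3% and 1.56% of all measured genes. In CCANT 5 were higher and 6 lower, with a median of −0.12, against 7.22% and 3.33%. The highest CCA ratios were those of *Ifi27l2a* (1.59 CPM in Control, 12.6 in CCA, 3.96 in CCANT), *Oasl1*, a synthetase relative (0.986, 4.64 and 1.25), and the DNA-binding *Ifi204* (2.14, 5.53 and 3.84). *Oasl1* and *Sp100* reached the minimum of 2 CPM only through the CCA library and so had to differ, and without them 14 of 34 were higher in CCA and 1 lower. The lowest were *Gm4951* (−0.85), *Zbp1*, a sensor of Z-form nucleic acid (−0.49), and *Epsti1* (−0.41). CCA ratios of at least 1.5-fold were more frequent among the scarcer genes of the list than among its abundant ones. The gene of the list with the highest Control level, 155 CPM, had a CCA ratio of 0.05. This list was also drawn up with results of these libraries known.

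The interferon-gamma GTPases went against the members. All 14 were measured, 0 were at least 1.5-fold higher and 12 at least 1.5-fold lower in CCA MG (median −1.26), where 1.56% of all measured genes were lower. In CCANT MG all 14 were lower (median −2.31), against 3.33% of all measured genes. *Iigp1* was at 401 (Control), 90.4 (CCA) and 44.3 CPM (CCANT), a CCA ratio of −2.15. *Tgtp2* (−1.71) and *Tgtp1* (−1.63) came next, though these near-identical copies may share reads. The highest ratios of the group were those of *Gbp5* (−0.36), *Gbp3* (−0.51) and *Gbp9* (−0.63). In the top 5% of CCA MG, as given above, their sum was nevertheless higher than in the other CCA MG. A response element core was present in 9 of 9 of these genes with a promoter in the table, and a gamma-activated site in 6 of 9.

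Of the receptors, kinases and factors between interferon and target, 11 were measured and 0 were 1.5-fold higher or lower in CCA MG (median 0.03). Of all measured genes 7.3% were higher and 1.56% lower, and 11 genes are too few to set against those shares. *Ifngr2*, a subunit of the interferon-gamma receptor, had 0.37, *Irf3*, a factor downstream of nucleic acid sensors, 0.14 and *Ifnar2* 0.11. The lowest were *Irf1* (126, 85.4 and 66.0 CPM in the 3 libraries), *Stat2* (111, 91.1 and 55.1) and *Jak2* (44.0, 42.5 and 42.8). In CCANT, 1 was higher and 2 lower (median 0.02), against 7.22% and 3.33% of all measured genes. Of the sensors of nucleic acids, 6 were measured and 1 was 1.5-fold higher in CCA (median 0.12), where 7.3% of all measured genes were, too few sensors to set against that share. It was *Myd88*, an adaptor of Toll-like receptors, at 0.62, followed by *Ticam1* (0.25) and *Ikbke* (0.15), and the lowest were *Tbk1* (−0.11), *Mavs* (−0.04) and *Tlr3* (0.10).

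Interferon genes were hardly seen. None of the 11 ligands passed the limit for being measured in MG. *Ifnb1* had 0 UMIs in the MG of each library, and 3 counts, the limit that a count of 0 allows, are 0.0318 (Control), 0.0381 (CCA) and 0.0495 CPM (CCANT). Over all cells that passed the filters, *Ifnb1* had 1 UMI in Control and 0 in CCA and CCANT, and *Ifna2* had 6, 0 and 0, with 5 of the 6 in the class of microglia and macrophages. *Ifng* had 75, 43 and 17 UMIs, of which 68, 37 and 17 were in the T and NK-like class of 77, 32 and 24 cells. *Ifnk* was the ligand with the most UMIs, 281, 176 and 198, most of them in MG, at 1.98, 1.25 and 1.65 CPM in the MG of the table.

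Other classes were read from all cells that passed the filters, without the requirement of tdTomato, and were named as "-like" from their markers. Rod-like cells had a member sum of 97.0 CPM over 855 cells of Control, 145 over 1380 of CCA and 96.8 over 1344 of CCANT, where MG of this wider set had 1445, 1653 and 1100 CPM. Rod-like cells thus held 6.71%, 8.76% and 8.80% of the MG level. Markers of MG, which rods should lack, stood in them at a median of 4.85%, 5.48% and 6.38% of their MG level, a measure of the free RNA that reached these cells. At that share, 70.0, 90.5 and 70.1 CPM of the rod-like sums would be carried over from MG. At 3000 UMIs per cell, *Isg15* was detected in 0.819%, 2.61% and 2.60% of rod-like cells and in 26.6% of Control MG, at a median full depth of 5072, 4975.5 and 5072.5 UMIs in rod-like cells and 23350.5 in Control MG. *Isg15* in Control rod-like cells, at 3.13% of its MG level, did not exceed that background.

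Microglia and macrophage-like cells (206, 147 and 147) stood far above that background, with 1394 (Control), 2106 (CCA) and 1419 CPM (CCANT). In them 8 of the 10 members were at least 1.5-fold higher in CCA than in Control, and 0 at least 1.5-fold lower, where 7.35% and 5.56% of 12271 genes measured in this class were, *Ifit3* (49.5, 154 and 80.4 CPM) with a ratio of 1.63 (1.42 to 1.85) and *Isg15* (89.2, 195 and 89.5 CPM) with 1.13 (0.96 to 1.30). *Ifitm3* (0.21) and *Bst2* (0.23) differed less, and, unlike in MG, were not lower. Markers of MG reached 13.2% to 21.3% of their MG level in these cells.

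Vascular classes were small. Pericyte-like cells (55, 96 and 39) had a member sum of 1533, 2107 and 2063 CPM, and *Isg15* in them was at 53.6, 270 and 206 CPM (CCA ratio 2.33, 1.88 to 2.82). Markers of MG stood in them at 18.7% (Control) and 23.0% (CCA) of their MG level, and at that share 25.7 and 55.7 CPM of *Isg15* would be carried over from MG. Endothelial-like cells (25, 47 and 31) had 1780, 3793 and 2908 CPM, the highest sum of the classes in CCA and CCANT, with *Ifi44* at 39.6, 192 and 136 CPM. With fewer than 50 cells in each library no ratio and no background share was taken for them. Astrocyte-like cells (35, 44 and 193) had 2336, 2840 and 1451 CPM, with MG markers at 23.9% of their MG level in CCANT, the library where the share was taken. The part of free RNA in the levels of these small classes was not tested. Of the neurons, amacrine-like cells had 82.5, 121 and 134.5 CPM and cone-like cells 51.6, 102.5 and 59.0, with MG markers at 2.34% to 2.98% and 2.70% to 4.27% of their MG level. *Ifit1* in amacrine-like cells had a CCA ratio of 2.41 (1.97 to 2.87), from 49 UMIs in Control and 317 in CCA. Of the classes with 50 or more cells in both libraries, MG among them, the member sum was higher in CCA than in Control in each.

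**Figure D5:**
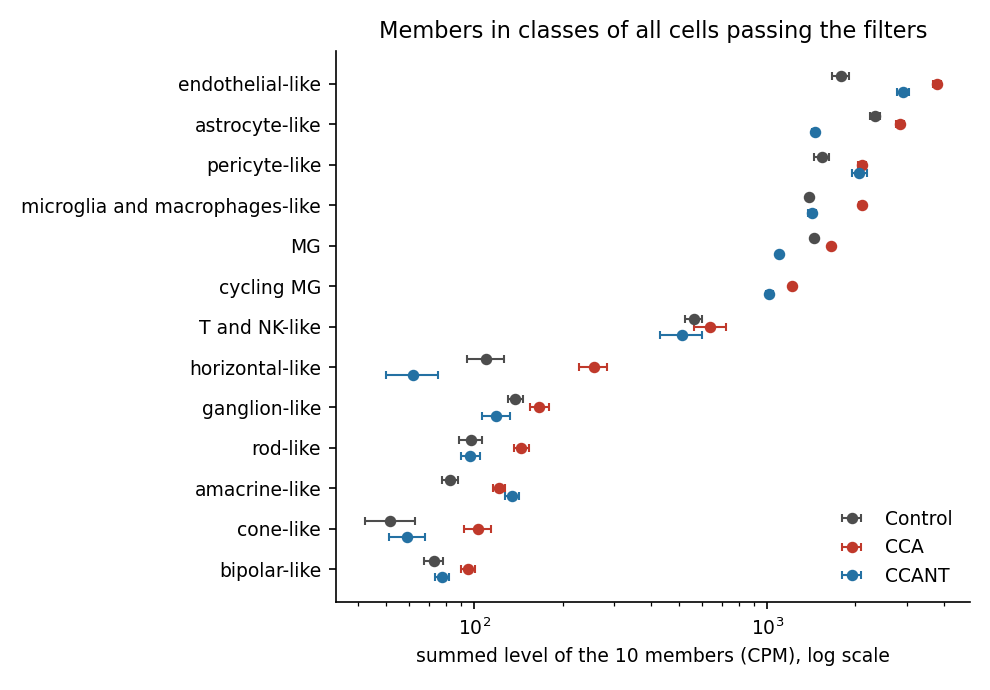
Summed level of the 10 members in CPM on a log axis in each named class with at least 20 cells in every library where it occurs, over all cells that passed the filters, with exact 95% Poisson intervals for counting error. The point for CCA lies right of that for Control in every class shown with both, while CCANT lies right of CCA in amacrine-like cells only.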

How the data were processed

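The 3 libraries were made with 10x Genomics 3′ chemistry, 1 per group. The authors deposited, for each library, a matrix of UMI counts (Cell Ranger 6.1.1, mm10, per the labels). They also deposited a series-wide table of counts for cells kept after their quality filters and removal of doublets. All values are whole numbers, and whether the series-wide table was scaled between libraries was not tested. In that table a median of 93.1% of the UMIs of a Control cell is present, against 99.85% in CCA and 99.87% in CCANT. Counts were therefore taken from the library matrices for its cells. Cells were clustered with scikit-learn 1.9.0, igraph 0.11.9 and leidenalg 0.10.2, on 2000 variable genes and 20 neighbours. The members, the interferon lists, other interferon-linked genes, Y-linked genes, *Xist*, *Tsix* and the transgenes were left out of the variable genes. Cells of the table were clustered with 7 components and a resolution of 0.3. All cells were clustered with 20 components and 0.5, and needed 2000 features or more, no more than 100000 UMIs and up to 15% mitochondrial UMIs. Clusters were named by marker medians, with a naming rule set after the clusters were seen. Scrublet was run in scanpy 1.11.5. MG are the clusters that passed for MG, cycling MG included, and the cluster that also passed for rods was left out. The label gives tamoxifen at 75 mg/kg and a *LacZ* hairpin, and the study's methods differ in dose, start and hairpin.

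The members, lists and comparisons were chosen with earlier results of these data known. All members are named. From each list the 3 highest and 3 lowest ratios of CCA to Control among measured genes are named, and of the 10 genes closest to the members over cells in Control and in CCA MG, the 5 closest. Some genes met by these rules are not reported here. Ratios are of CPM with exact Poisson intervals and shares carry Clopper-Pearson intervals, at 95%. With 1 library per group no p-value was computed. The steps were tested on simulated counts with known folds. Alternatives covered the scaling, cycling cells, sex, the depth of thinning, the share of top cells, the fold and the filter on low values.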

Additional observations from a re-analysis of the deposited data

Results flagged for a closer look

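With at least 50 UMIs in each library and a difference of at least 1.5-fold in MG and in the class, *Ifit3* had a CCANT ratio of opposite direction to that in MG in 2 classes. In MG the log2 ratio of CCANT to Control was −0.72, in amacrine-like cells it was 1.206 (0.88 to 1.54, from 116 UMIs in Control and 248 in CCANT), and in microglia and macrophage-like cells it was 0.700 (0.43 to 0.97, from 257 and 221 UMIs). In ganglion-like cells it was 0.489 (0.07 to 0.90, from 153 and 72 UMIs), above 0 but under that limit, and it was 0.10 (−0.38 to 0.59) in bipolar-like and 0.07 (−1.20 to 1.43) in cone-like cells. In rod-like cells it had the direction of MG, at −0.383 (−0.997 to 0.24, from 42 UMIs in Control and 52 in CCANT), as in cells of a mixed class with markers of more than 1 type (−0.659, −0.75 to −0.57). Each class has 1 library on each side, so the difference between classes was not tested. *Ifit3* was detected in 2.05% of Control and 3.60% of CCANT amacrine-like cells at 3000 UMIs.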

How the results depend on the processing

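With 1 library per group, variation between animals lies within each ratio between libraries and cannot be estimated, and sex is bound to the Control and CCA libraries. No paired analysis was possible because each group has 1 library, so that the shared replicate number 1 pairs nothing. Of 220 ratios of single members under alternatives, 215 had the sign of the ratio reported. By size, 151 lay within the counting interval of the ratio reported and 68 outside it. Another 1 took the other sign from a ratio of at least 1.5-fold. With each cell at 8000 UMIs, leaving out the top 5% of MG changed the sign of the CCA ratios of *Ifit3* (0.624 to −0.006) and *Oasl2* (0.103 to −0.016) and of the CCANT ratios of *Isg15* (0.086 to −0.004) and *Ifit2* (−0.007 to 0.027, where it was −0.174 at full depth), and the CCANT ratio of *Ifit1* did so (−0.042 to 0.231) with CCANT MG of the sex of the Control cells. The member ratios without the top 5% of MG, the sets without the cluster led by *Cxcl10* and the top-cell results without called doublets were chosen after seeing the data. Scrublet marked 0 of 9579 Control and 0 of 10890 CCANT cells and so did not work there.

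The median CCA ratio of the members, 0.778, became 0.743 with the mean of each cell's CPM, 0.699 with size factors, 0.817 without cycling clusters, 0.727 without the tdTomato filter, 0.662 without the cluster led by *Cxcl10*, and, at 8000 UMIs, 0.765 with all MG and 0.456 without the top 5%. The count of members at least 1.5-fold higher, 7, became 4 at a fold of 2 and 3 without the top 5%. The count of those lower, 0, became 1 with size factors, without cycling clusters, without the *Cxcl10* cluster and without the top 5%. The median CCANT ratio of −0.108 became −0.027 after thinning and 0.075 with CCANT MG of the sex of the Control cells. The share of CCA member UMIs in the top cells, 32.27%, became 33.73% without thinning, 31.77% with another draw and 29.17% without the *Cxcl10* cluster, and the top 1% held 11.79%. The summed CCA ratio without the top 5%, −0.034, became 0.136 with 1% left out, −0.123 with 10%, 0.228 with none and −0.065 without the *Cxcl10* cluster. The shares of all genes past 1.5-fold became 2.67%, 1.13%, 2.66% and 2.73% at a minimum of 20 CPM (CCA higher and lower, CCANT higher and lower) and 11.9%, 3.41%, 11.1% and 6.14% with no minimum. The cause of these changes was not tested.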
